A study of Homo sapiens with 2 samples.

Results

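Peaks near microRNA (miRNA) genes were taken from the annotated JARID2 peak list of MDA-MB-231 cells, a human triple-negative breast cancer line. A member was a peak whose nearest listed transcript carried a miRNA gene symbol and whose deposited distance from that transcript's start was 3 kb or less, and the miR-200 family was left out. The rule gave 148 peaks over 139 symbols, of 67071 peaks in all (0.221%) and of 13764 peaks within 3 kb of any start (1.08%). It used names and distances and none of the enrichment values. Of the 148 peaks, 136 were listed with a transcript of hairpin size (200 bp or less), 6 with a host gene symbol and 6 with a longer transcript under a miRNA symbol. Among 134 hairpin-size entries with a length in the RefSeq table, 130 had exactly that length. For these the listed "start" is thus the 5′ end of the listed hairpin and not the start of the primary transcript.

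The data come from untreated cells. Chromatin was fixed with 1% formaldehyde for 10 min, and 1 library was precipitated with a polyclonal antibody against JARID2 while 1 library was input DNA. A transposase kit and 15 PCR cycles gave the sequencing libraries. The peak list of the JARID2 library was analysed, with no replicate and with no file of the input library used here, so every fold enrichment, tag count and false discovery rate (FDR) is the authors' single value for a peak and no test between samples was possible. The depth of the library is unknown. The line's identity was not checked, since peaks give no expression.

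miRNAs are short RNAs cut by Drosha and Dicer from hairpins in longer primary transcripts, and they repress mRNAs that pair with their seed, the bases next to the 5′ end. Many hairpins lie in introns of protein-coding host genes, and others in long non-coding transcripts with promoters of their own, often far from the hairpin. JARID2 helps to bring PRC2, a Polycomb complex, to chromatin, where PRC2 methylates histone H3 on lysine 27, and several miRNA genes are known PRC2 targets in embryonic stem cells.

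The sequences of the 2 miRNAs whose peaks reached an FDR of 5% or less come first. RefSeq (GRCh38.p14) gives the hairpins below in RNA letters, 5′ to 3′, with the mature miRNAs in capitals. They are shown because the MIR92B peak ended just before its hairpin and the MIR4505 peak covered its hairpin.
MIR92B hairpin: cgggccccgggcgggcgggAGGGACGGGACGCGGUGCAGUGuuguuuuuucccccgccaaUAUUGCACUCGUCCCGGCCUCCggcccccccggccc
MIR4505 hairpin: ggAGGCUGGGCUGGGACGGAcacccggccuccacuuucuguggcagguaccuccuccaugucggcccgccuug
In the mature forms the capitals mark the seed, bases 2 to 8.
miR-92b-3p: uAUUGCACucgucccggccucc
miR-92b-5p: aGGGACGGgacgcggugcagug
miR-4505: aGGCUGGGcugggacgga
The seed of miR-92b-3p is carried by 7 miRNA genes of the RefSeq table, and MIR92B was the 1 with a member peak. The seed of miR-4505 is carried by 2.

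MIR92B, whose mature miRNA is a paralogue of miR-92a from the oncogenic miR-17-92 cluster, had the strongest peak of the 148. Its peak held 71 tags (95% exact Poisson interval 55.5 to 89.6) at a fold enrichment of 15.89 with an FDR of 0. It lay on hg19 chromosome 1 (155163020 to 155164939), was 1920 bp wide and ended at position −29 bp, counted from the start of the listed hairpin with upstream negative (155164968 to 155165063, plus strand, ENSG00000271748). The summit stood at −458 bp. RefSeq places MIR92B inside the long non-coding gene THBS3-AS1 on the same strand. Among all 67071 peaks it ranked 128 by fold enrichment and 151 by tags. The listed peaks within 10 kb were 2 weak ones named RP11-263K19.4, with 12 tags at 5.3-fold (FDR 46.3%) and 10 tags at 8.83-fold (FDR 37.2%).

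MIR4505 had the other peak at an FDR of 5% or less. It held 47 tags (34.5 to 62.5) with an FDR of 1.09%, but its fold enrichment of 6.06 was near the median of the whole list. The peak was 1398 bp wide on chromosome 14 (74224751 to 74226148), reached from −699 to 698 bp around the hairpin start and covered the hairpin (74225450 to 74225522, plus strand) completely. Its summit lay at −565 bp. The RefSeq host gene is MIDEAS, on the opposite strand. MIR4505 ranked 621 of all peaks by tags and 31749 by fold enrichment, so the 2 measures placed it very differently.

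**Figure D1:**
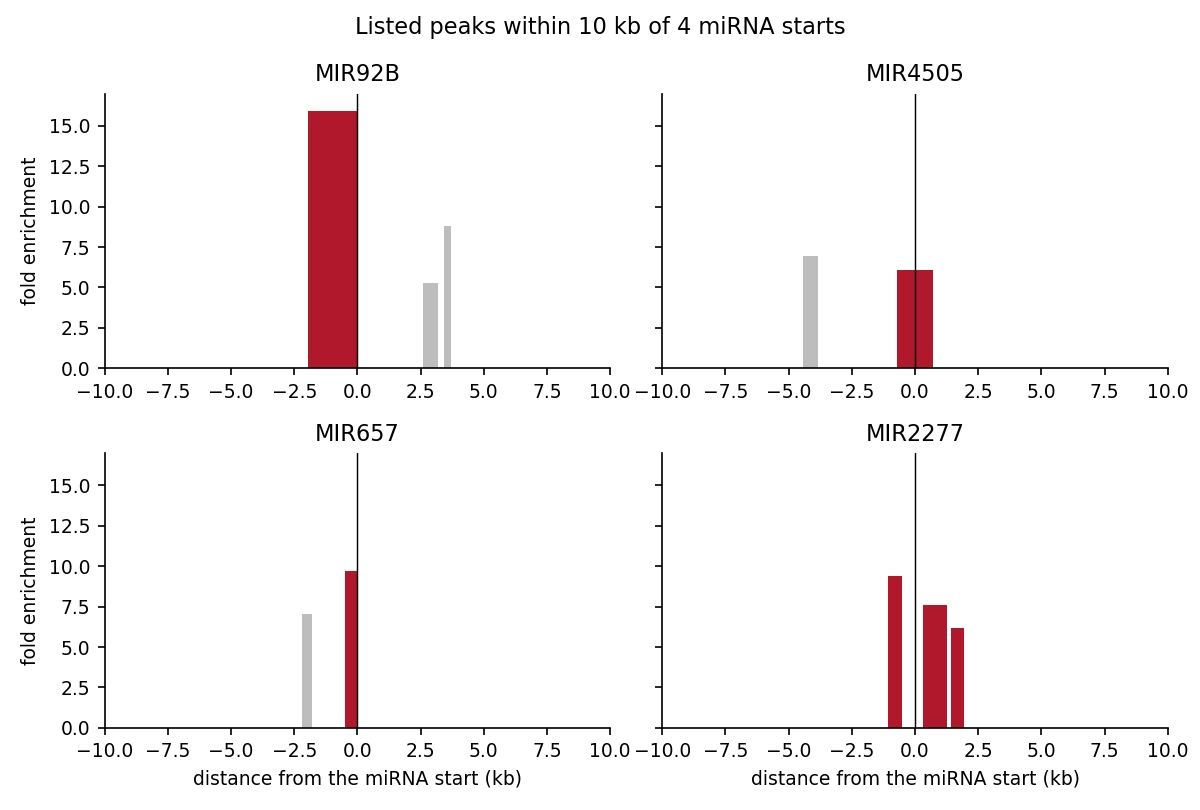
Peaks within 10 kb of the listed starts of MIR92B, MIR4505, MIR657 and MIR2277, drawn at their true width (x axis, kb from the start in the direction of the miRNA, negative is upstream) and fold enrichment (y axis). Red bars are peaks given to the miRNA named above the panel and grey bars are other listed peaks; the MIR92B bar, at 15.89, ends just before the start, and MIR2277 has 3 red bars.

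As a set, the miRNA peaks were about as high as the whole list. Their median fold enrichment was 5.82 (95% exact interval of the median 5.60 to 6.18, range 2.91 to 15.89), against 5.95 over all peaks and 5.92 over the other 13616 peaks within 3 kb of a start. Tags per peak had a median of 14 (range 9 to 71), against 12 over all peaks and 14 over the other peaks near starts. The median width was 521.5 bp against 510 and 553 bp. Together the members held 2407 tags, 0.241% of the tags in peaks.

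At an FDR of at most 5% there were 2 of 148 members (1.35%, 95% exact Clopper-Pearson interval 0.164 to 4.80), beside 1.24% of all peaks and 4.32% of the other peaks within 3 kb of a start. The members' share was thus near that of the whole list, and the share near other starts lay within its interval. At −log10 p of at least 5 there were 25 members (16.9%), beside 12.9% of all peaks and 20.7% of the other peaks near starts. Fold enrichment of 10 or more was reached by 1 member, MIR92B, against 1.04% of all peaks and 3.03% of the other peaks near starts. The FDR was above 40% for 102 members (68.9%), against 70.3% of all peaks and 62.4% of the other peaks near starts. Peaks within 3 kb of small nuclear, Y, 7SK, 7SL and small nucleolar RNA genes, another set of short non-coding transcripts, gave 8 of 549 at an FDR of at most 5% (1.46%) and a median fold enrichment of 5.82. Peaks are not replicates, and these shares and medians are descriptions with intervals for counting error only.

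**Figure D2:**
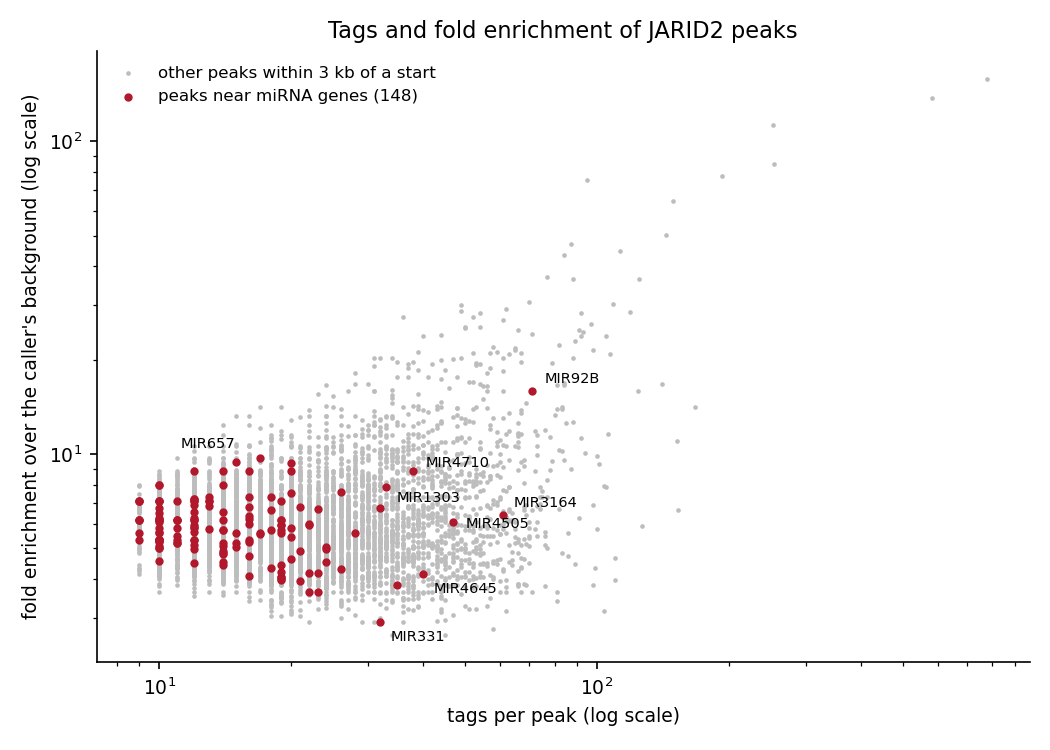
Tags per peak (x axis, log scale) against fold enrichment (y axis, log scale) for the 148 miRNA peaks in red and the other peaks within 3 kb of a start in grey. MIR92B, with 71 tags at 15.89-fold, stands above the other red points, which lie between 2.91 and 9.71.

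**Figure D3:**
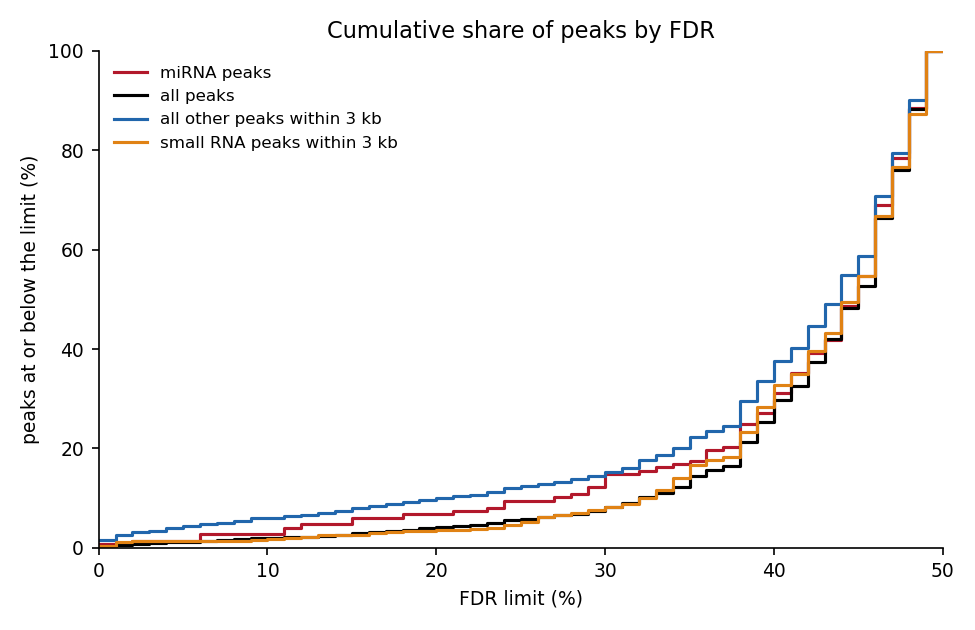
Cumulative share of peaks (y axis, percent) at or below each FDR limit (x axis, percent) for the miRNA peaks, all peaks, the other peaks within 3 kb of a start and the small RNA peaks. At 5% the miRNA curve stands at 1.35% and the curve of other peaks near starts at 4.32%; above 40% FDR lie 68.9% of the miRNA peaks.

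Between an FDR of 5% and 20% lay 8 more peaks, at 7 miRNA genes. MIR1303, in the gene of the RNA-binding protein LARP1, had 33 tags at 7.83-fold (FDR 5.21%, chromosome 5, 154062428 to 154063273). MIR4710, outside any RefSeq host gene, had 38 tags at 8.84-fold (FDR 5.71%, chromosome 14, 105143918 to 105144925), and the peak covered the hairpin. These 2 peaks lay just outside the 5% limit. MIR3164, in the gene of the endolysosomal channel TPCN2, had 61 tags over 2030 bp, the widest peak of the set, at 6.37-fold (FDR 10.2%). MIR3159 had 32 tags at 6.72-fold (FDR 11.7%). MIR4787, in the gene of the guanine nucleotide exchange factor DOCK3, had 23 tags at 6.67-fold (FDR 17.4%), and its peak overlapped the hairpin. In all, 6.76% of the members had an FDR below 20%, against 4.14% of all peaks and 10.1% of the other peaks near starts.

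MIR2277 was the symbol with most peaks, and 7 other symbols had 2 each. Its peaks on chromosome 5 held 20 tags at 9.39-fold (FDR 10.2%), 26 tags at 7.58-fold (FDR 14.8%) and 16 tags at 6.19-fold (FDR 31.3%). The first lay upstream of the hairpin and the other 2 downstream, and none overlapped it. MIR657, in the gene of the kinase AATK, had the second highest fold enrichment of the set, 9.71 with 17 tags (FDR 14.2%, chromosome 17, 79099158 to 79099657). The peak overlapped the 5′ end of the hairpin. A separate peak of 9 tags at 7.06-fold (FDR 47.3%) was given to MIR338, which RefSeq places in the same host gene. Its listed transcript (79 bp, plus strand) does not have the length or strand of the RefSeq MIR338 hairpin (67 bp, minus strand). Among 125 hairpin-size entries with a RefSeq strand, the listed strand differed in 2, MIR338 and MIR3158-2, the latter named after its values were seen.

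Most of the other high fold enrichments rested on few tags. MIR553 had 9.42 with 15 tags (FDR 29.9%). MIR185, MIR4266, MIR3185 and MIR3976 each had 8.83, with 12, 16, 20 and 14 tags and FDRs between 22.4% and 40.9%. MIR3186, MIR1-2 and MIR4768 each had 7.95 with 10, 14 and 10 tags. MIR567 (7.53), MIR212 (7.31), MIR648 and MIR5687 (7.28 each), MIR4422 and MIR557 (7.20 each) and MIR548AA2 (7.09) completed the 20 highest symbols. Their FDRs ran from 26.4% to 48.1%. Some fold values recurred: 6.18 was given to 15 members with 9 to 19 tags (10.1%, against 11.3% of all peaks) and 5.3 to 12 members with 9 to 12 tags (8.11% against 8.85%). Conversely MIR4645 held 40 tags at 4.13-fold (FDR 42.8%), and MIR331, the lowest, held 32 tags at 2.91-fold (FDR 46.4%).

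Most peaks lay beside the hairpin. Of the 136 entries of hairpin size, 23 peaks overlapped the hairpin and 14 of these covered it entirely. The deposited distance was 0 for 22 of the 148 members (14.9%, 95% exact interval 9.56 to 21.6). Among the other peaks within 3 kb that share was 26.8%, and among small RNA peaks it was 9.47%. Upstream lay 60 members and downstream 66. Of the 22 peaks over a listed start, 1 had an FDR of at most 5% (4.55%, 0.115 to 22.8), against 452 of 3646 peaks over other starts (12.4%). Median fold enrichment was 5.42 for these 22, and 5.77, 5.71 and 6.18 for distances above 0 to 1 kb, 1 to 2 kb and 2 to 3 kb. The deposited distance was measured from the nearest peak edge for transcripts on the plus strand and from the farthest edge for those on the minus strand. Counting the nearest edge on both strands added 14 peaks, all on the minus strand, with a median fold enrichment of 5.38 and 0 at an FDR of at most 5%.

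**Figure D4:**
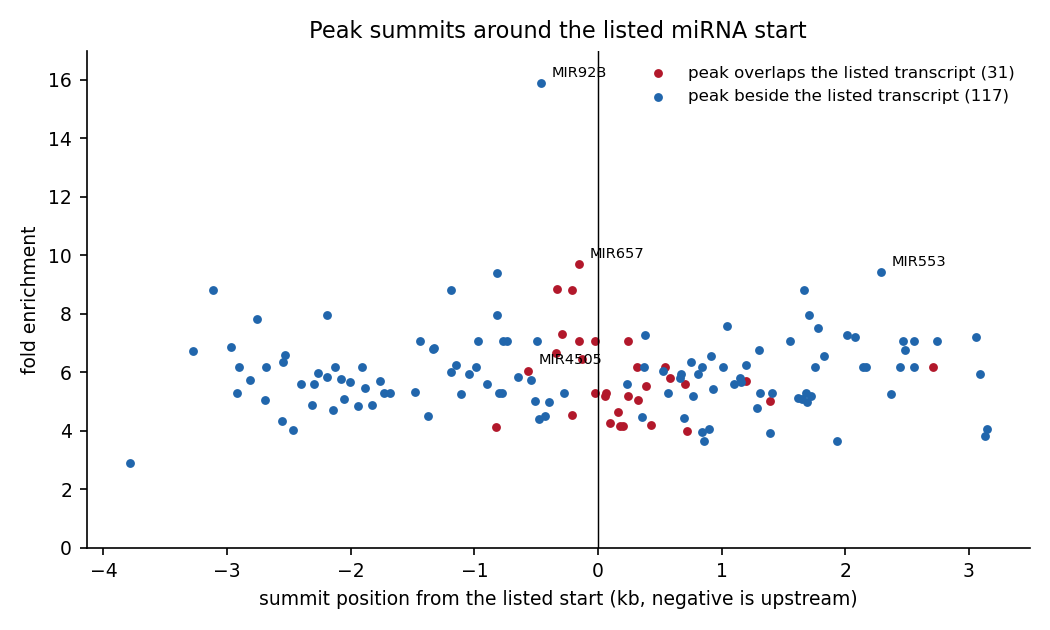
Position of each peak summit relative to the listed start (x axis, kb, negative is upstream) and fold enrichment (y axis) for the 148 peaks, in red where the peak overlaps the listed transcript (31) and in blue where it lies beside it (117). Peaks lie on both sides of the start, and apart from MIR92B at 15.89 the whole set runs from 2.91 to 9.71.

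The peaks nearest the edge of the 3 kb reach were picked by deposited distance. The members just inside were MIR4500HG at 2839 bp (6.18-fold), MIR3129 at 2861 bp (6.78) and MIR873 at 2912 bp (7.06). Just outside were MIR4426 at 3007 bp (6.27), MIR548H2 at 3034 bp (5.3) and MIR589 at 3067 bp (6.18). MIR548H2 and MIR589 are on the minus strand, and their nearest peak edges lay at 2344 and 2660 bp, within the reach. The nearest edges of MIR4500HG, MIR3129 and MIR873, also on the minus strand, lay at 2337, 2052 and 2583 bp. These peaks therefore do not compare the 2 sides of a true 3 kb edge.

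CpG dinucleotides were counted in the hairpins under a peak and in those beside one. Hairpin sequences of 101 member genes were in the RefSeq table, and 98 were used, with genes on chromosome 8 left out. MIR4470, which had a peak over its hairpin (−105 to 396 bp), was among those left out. Over the 21 whose peak overlapped the hairpin, the median was 4 CpG and the median GC content 57.3%, and 11 (52.4%, 95% exact interval 29.8 to 74.3) held at least 4 CpG. Over the 77 whose peak lay beside the hairpin, the medians were 1 CpG and 48.1% GC, and 12 (15.6%, 8.32 to 25.6) held at least 4. All 1560 RefSeq hairpins had medians of 1 CpG and 52.1% GC, and 17% held at least 4. Some of the 1560 may be missing from the hg19 annotation that named the peaks, so they are not a matched background. Over all hairpin-size entries, a larger set than those with CpG counts, the 23 peaks over hairpins had a median of 18 tags and the other 113 a median of 13. The part of base composition in peak calling was not tested. The MIR92B hairpin, beside its peak, had 12 CpG and 75% GC, and MIR4505 and MIR4710 had 4 CpG each.

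**Figure D5:**
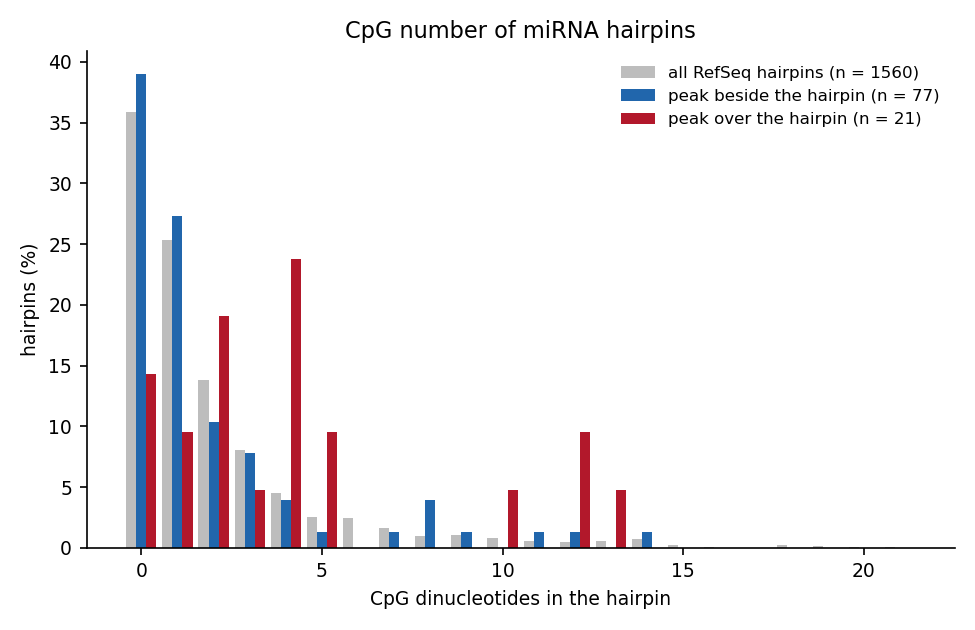
Share of hairpins (y axis, percent) by number of CpG dinucleotides (x axis) for all 1560 RefSeq hairpins in grey, 77 member hairpins with the peak beside them in blue and 21 with the peak over them in red. The red bars lie further to the right, with 52.4% at 4 or more CpG against 15.6% of the blue.

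By host gene, 86 of the hairpin-size entries lay in a RefSeq protein-coding gene, 17 in a long non-coding gene and 30 in neither, and 3 had no match. Median fold enrichments were 5.96, 5.20 and 5.71. In protein-coding hosts 51 entries were on the host's strand (median 5.98) and 18 on the other (5.72), and 17 had no single host strand in the tables used. The 2 peaks at an FDR of at most 5% fell in the long non-coding group (MIR92B) and in the opposite-strand group (MIR4505). The distance of the peaks from the host genes' own starts was not measured. Of 5 host symbols with a RefSeq promoter (300 bases around the start), 1 held TCCCGC, an E2F core, on either strand and 0 held the palindromic E-box CACGTG. Over all 35116 promoters of that length the shares were 26.9% and 7.26%.

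Of 1908 RefSeq miRNA genes outside the miR-200 family, 131 (6.87%, 95% exact interval 5.77 to 8.09) had a member peak under their own symbol, and this is the background for the counts of the lists that follow. The peaks carry names from an hg19 annotation, and the highest-numbered member was MIR5706. RefSeq genes missing from that annotation could have no member peak, so this share may be too low for the lists. The number of such genes was not counted. The lists are short, and their counts are descriptions with no test. miRNAs known as oncogenic in breast cancer had weak peaks. Of 14 such genes, 4 had a member peak under their own symbol, with fold enrichments of 3.64 to 4.98 and FDRs of 44.0% to 48.1%. MIR221 and MIR222, neighbours on chromosome X that repress the cell cycle inhibitor p27, had 23 tags at 4.16-fold and 12 tags at 4.98-fold. The MIR221 peak covered its hairpin. MIR21, which lies in the gene VMP1, had 22 tags at 3.64-fold downstream of the hairpin. MIR210, induced by hypoxia, had 12 tags at 4.48-fold. MIR155 is also 1 of the 14 genes, but its peak is not among the 4 or in their ranges. A peak named MIR155HG belongs to the MIR155 hairpin, because its listed transcript is 65 bp long, the length RefSeq gives for MIR155. It held 19 tags at 6.18-fold (FDR 32.4%, chromosome 21, 26946301 to 26947140) and overlapped part of the hairpin. The mature forms are printed because miR-221 and miR-222 share 1 seed, in capitals, and both genes had a peak.
miR-221-3p: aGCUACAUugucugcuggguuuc
miR-222-3p: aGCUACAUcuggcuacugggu
miR-21-5p: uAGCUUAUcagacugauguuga
miR-210-3p: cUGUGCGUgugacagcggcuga
miR-155-5p: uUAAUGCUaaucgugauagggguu

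Tumour or metastasis suppressor miRNAs were also represented by weak peaks, at 3 of 14 genes. MIR203, which drives epidermal differentiation and is MIR203A in RefSeq, had a peak of 10 tags at 7.06-fold (FDR 48.0%) that covered its hairpin. MIR125B1 had 2 peaks downstream, with 16 tags at 6.35-fold (FDR 44.3%) and 14 tags at 4.78-fold (FDR 48.8%). MIR148A had 16 tags at 4.71-fold (FDR 47.9%). MIR152, in the gene COPZ2, shares its seed with miR-148a and had 13 tags at 7.06-fold over the hairpin (FDR 45.3%). The pair is shown for the shared seed.
miR-148a-3p: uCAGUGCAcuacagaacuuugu
miR-152-3p: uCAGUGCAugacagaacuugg

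The let-7 family, which represses RAS and HMGA2 mRNAs, had member peaks at 2 of 12 genes. MIRLET7A2, in the same non-coding host MIR100HG as MIR125B1, had 22 tags at 4.17-fold (FDR 44.0%) over its hairpin. MIRLET7G, in WDR82, had 16 tags at 5.98-fold upstream (FDR 48.1%). Their mature forms have the family seed.
let-7a-5p: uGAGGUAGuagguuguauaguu
let-7g-5p: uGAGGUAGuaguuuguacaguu
Of the p53-induced miR-34 family, 1 of 3 genes had a peak, MIR34C, with 14 tags at 5.20-fold covering the hairpin (FDR 47.0%). MIR449A, which has the miR-34 type of seed and lies in CDC20B, a gene active in multiciliated cells, had 19 tags at 6.18-fold (FDR 27.7%). A peak given to CDC20B, with its summit at −5806 bp from the MIR449A start, held 45 tags at 8.40-fold with an FDR of 0.48%. It was the 1 peak given to another gene within 10 kb of any member's start that reached an FDR of 5%.

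Tissue-restricted and clustered miRNAs are read against the same 6.87% of RefSeq miRNA genes. Muscle miRNAs had 2 of 9 genes, with MIR1-2 at 7.95 (FDR 29.8%) and 5.02 (FDR 46.5%) and MIR133A2 at 5.20 (FDR 45.7%). The MIR1-2 peak at 7.95 was listed with a transcript of 2324 bp and not with the hairpin. Neural miRNAs had 1 of 15, MIR212, with 18 tags over part of its hairpin at 7.31-fold (FDR 29.7%). Pluripotency miRNAs had 1 of 11, MIR302E at 5.08. The miR-29 and miR-30 families had 1 of 10, MIR29A at 5.60, listed with a transcript of 31415 bp. The primate MIR548 family had 5 of 75 genes, with a median of 5.32. The chromosome 19 cluster had 1 of 53 (MIR521-2, 5.30), and the imprinted cluster on chromosome 14 had 2 of 49 (MIR370 at 5.30 and MIR665 at 6.18). None of these peaks reached an FDR of 5%.

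In lists this short, a share of 6.87% amounts to about 1 gene or less, and a count of 0 says nothing about a group. No member peak was given to HOX-cluster miRNAs (0 of 6), liver and gut miRNAs (0 of 5), blood cell miRNAs (0 of 11), miRNAs reported to target PRC2 mRNAs (0 of 10) or the hairpins of miR-17-92 and its paralogue clusters (0 of 15). The MIR155 hairpin, listed under its host symbol and held by the blood cell, PRC2-targeting and oncogenic lists, is counted in none of these. MIR106A, of the paralogue clusters, had a peak with its nearest edge at −2706 bp, left out by its deposited distance of −3127 bp. MIR17HG, the primary transcript of miR-17-92, had 10 tags at 5.02-fold inside the gene (FDR 48.0%). Each peak carries 1 name, so a miRNA without a member peak may have a peak that was given to another transcript.

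Host symbols were no stronger. MIR7-3HG had 17 tags at 5.54-fold over its listed start (FDR 38.3%), and MIR181A2HG 26 tags at 4.28-fold over its own (FDR 43.1%). MIR181A1HG had 2 peaks, at 6.80 (FDR 35.3%) and 3.99 (FDR 47.8%). By miRNA number, which follows the order in which genes were catalogued, the 55 hairpin-size entries below 1000, let-7 included, had a median of 5.60 and the 81 at or above it 5.93, with 1 peak each at an FDR of at most 5%.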

How the data were processed

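One JARID2 ChIP-seq peak list was used. The submitters' processing notes name hg19 and, as tools, Bowtie 0.12.8, bcl2fastq, ChIPseeker, MACS2 and MACS. The caller version, its thresholds and how the input entered were not given in the sources used here. Tags were deposited as an unscaled whole-number count for each peak. Fold enrichment was deposited as a ratio over background, and FDR as a percent, per the file headers. A deposited score with a damaged header was read as −log10 p times 10, from its place and its minimum of 30.

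Members were picked by symbol and deposited distance. Counts, medians and exact Clopper-Pearson, order-statistic and Poisson intervals (95%) were computed with Python 3.11.15, pandas 2.3.3 and scipy 1.17.1. The rule and summaries were tested on simulated data. Symbols were matched to RefSeq GRCh38.p14 by symbol or unique synonym (137 of 139; mature sequences for 119 miRNA genes), for names, hosts and sequences only. Peak coordinates are hg19. Members and lists were chosen with earlier results of these data known. The genes named are members at an FDR of at most 5%, the 20 largest folds, the 5 largest tag counts, symbols with 3 or more peaks, up to 4 per list and those at the reach's edge; MIR338, MIR3159, MIR4787, MIR152, MIR449A, MIR331 and host symbols were named after their values were seen. Alternatives were other reaches, symbol sets and peak thresholds. The sequence under the peaks was not used here.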

Additional observations from a re-analysis of the deposited data

How the results depend on the processing

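Of the 148 peaks' 3 summary values (median fold enrichment, share with an FDR up to 5%, share over the listed start), each stayed within their 95% intervals when only hairpin transcripts, 1 peak per symbol or miRNAs numbered below 1000 were used, when the miR-200 family was kept and when the MIR548 family was left out. So did those with the nearest peak edge on both strands, a setting chosen after the data were seen. Restricting to −log10 p of at least 5 left 25 peaks and moved all 3, to a median of 7.06, a share of 8% at the FDR limit and 28% over the start. A reach of 1 kb by deposited distance raised the share over the start to 35.5% (22 of 62), and peaks at distance 0 had a median of 5.42. By the nearest peak edge on both strands, 80 members lay within 1 kb, so that share depends on how distance is counted. The share at the FDR limit was 3.23% (2 of 62) at the 1 kb reach and 4.55% (1 of 22) at distance 0. The p limit and the 1 kb reach select on the values or distances they change, and for distance 0 the cause was not tested. In the top 25% of all peaks by fold enrichment the shares were 2.94% and 20.6%, and no median was taken there. The share at the FDR limit rests on 2 peaks. With 1 ChIP library there is no replicate, and tag counts near the minimum of 9 limit each single value. No paired analysis was possible because each group had 1 library.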

Other observations

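Beyond the 3 kb reach, 795 peaks carried a miRNA symbol as their nearest transcript, outside the miR-200 family. Their median fold enrichment was 5.99 and 2 of them (0.252%) had an FDR of at most 5%. One was given to MIR3155A, with 26 tags at 14.13-fold (FDR 1.70%) on chromosome 10 (6205698 to 6206425), 11540 bp downstream of the hairpin start. The other was given to MIR3668, with 26 tags at 7.95-fold (FDR 4.49%) on chromosome 6 (140513644 to 140514429), at a deposited distance of −11960 bp, upstream.

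The deposited distances depend on strand. For all 32626 peaks off the start of a plus-strand transcript the distance equals that of the nearest peak edge within 2 bp, and for all 30777 off the start of a minus-strand transcript it equals that of the farthest edge. Among the 14 peaks that the 3 kb reach lost in this way were 1 at MIR23A with 50 tags (5.46-fold, FDR 32.3%), 1 at MIRLET7A2 with 35 tags (4.23-fold, FDR 38.7%) and 1 at MIR106A with 10 tags (7.06-fold, FDR 45.5%).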
